A study of Mus musculus with 6 samples.

Results

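The Msx and Dlx genes encode homeodomain transcription factors of the pharyngeal arches, and 7 of them, Msx1, Msx2, Dlx1, Dlx2, Dlx3, Dlx5 and Dlx6, were followed here among 19938 genes. Each was read through the probe set that carries its symbol alone in the array annotation, and each of the 7 had a single such probe set. The arrays hold RNA of the ascending aorta (3 arrays) and of the descending aorta (3 arrays). All 6 come from untreated wild-type embryos on a C57BL/6 background, taken 13.5 days after coitus. The labels name the arrays of a segment biological replicates without saying how many embryos stand behind each, so the p-values rest on the spread between arrays, part of which may be technical. The tissue is bulk dissected vessel, and fewer cells of a type cannot be told apart from less RNA per cell.

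In the arches, Dlx genes are switched on in cranial neural crest mesenchyme in a nested order: Dlx1 and Dlx2 along the whole arch, Dlx5 and Dlx6 in its distal part under endothelin signalling, and Dlx3 most distally. Msx1 and Msx2 are induced by bone morphogenetic proteins (BMPs) and act mostly as repressors, while Dlx proteins act mostly as activators, and both bind the same short TAAT-containing DNA core. The smooth muscle of the ascending aorta comes largely from cardiac neural crest, which passes through the caudal arches, and that of the descending aorta from mesoderm. In mice that lack both Msx genes the outflow tract forms abnormally. The comparison of the segments therefore asks whether arch patterning genes are at different levels in vessel walls of different origin.

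Msx2, Dlx1 and Dlx2 each had their highest value on ascending replicate 1, as described below, so their promoter windows are shown. Dlx5 was also highest there but had no window. Each window runs from 250 bases before to 50 after the gene start, in a set of RefSeq promoters on GRCm38.p6. That promoter set held 4 of the 7 genes. The Msx2 window lies at chr13:53472731-53473030 on the minus strand, that of Dlx1 at chr2:71529195-71529494 on the plus strand and that of Dlx2 at chr2:71546705-71547004 on the minus strand. Capitals mark TAATT, the homeodomain core, and GGCGCC, an element bound by BMP-activated Smads, on either strand. Adjoining matches run together where they overlap.
Msx2: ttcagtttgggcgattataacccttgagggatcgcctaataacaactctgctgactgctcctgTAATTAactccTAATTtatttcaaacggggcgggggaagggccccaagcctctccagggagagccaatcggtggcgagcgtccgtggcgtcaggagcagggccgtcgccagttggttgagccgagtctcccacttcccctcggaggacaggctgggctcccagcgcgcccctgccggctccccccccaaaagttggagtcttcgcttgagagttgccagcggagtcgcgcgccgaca
Dlx1: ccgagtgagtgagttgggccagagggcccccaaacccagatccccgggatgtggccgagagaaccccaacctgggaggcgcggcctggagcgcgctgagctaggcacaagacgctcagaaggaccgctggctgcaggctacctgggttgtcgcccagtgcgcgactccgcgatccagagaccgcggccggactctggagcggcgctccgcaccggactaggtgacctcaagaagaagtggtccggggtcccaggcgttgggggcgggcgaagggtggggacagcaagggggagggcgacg
Dlx2: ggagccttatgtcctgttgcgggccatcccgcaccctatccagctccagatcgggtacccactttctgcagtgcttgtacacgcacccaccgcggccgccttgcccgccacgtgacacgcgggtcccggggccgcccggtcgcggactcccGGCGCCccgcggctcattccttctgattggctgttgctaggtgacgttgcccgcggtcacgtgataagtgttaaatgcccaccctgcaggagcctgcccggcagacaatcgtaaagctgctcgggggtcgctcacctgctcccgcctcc
The Msx2 window held 3 matches to TAATT, and the first 2 overlap as TAATTA, which reads the same on both strands. They begin at positions -187, -186 and -176 from the gene start. The windows of Msx1, Dlx1 and Dlx2 held 0 matches to TAATT. Of 32851 windows of the same length, 27.0% held at least 1 match and 3.97% at least 3. The Dlx2 window held 1 match to GGCGCC, at position -99, and the windows of Msx1, Msx2 and Dlx1 held 0, against 11.9% of all windows with at least 1.

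Ascending replicate 3 resembled the descending arrays more than its own group. Its mean Pearson correlation over genes was 0.988 with the other ascending arrays and 0.996 with the descending arrays, coefficients across genes, which are no independent replicates. Results are therefore given with and without that array. Because its own values set it apart, p-values without it are likely too small. Acta2 and Tagln, smooth muscle genes checked for the labelled vessel wall, lay between 13.6 and 13.8 and between 12.04 and 12.62 on all arrays.

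No member passed the test between the segments over all 6 arrays. The count was 0 of 7 at an adjusted p of 0.05 in limma, where 0% of all 19938 genes passed. At an unadjusted p under 0.05 it was 1 of 7, Msx2, against 9.29% of all genes. The mean was higher in ascending aorta for 6 of 7 members, against 43.8% of all genes. The median log2 difference of the members was 0.25, and that of all genes was -0.021. The ascending and descending arrays did not overlap for 1 of 7 members, again Msx2, against 14.8% of all genes. The counts at an unadjusted p and of groups without overlap are close to the background.

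Msx2, a repressor that responds to BMP signals in arch, limb and skull mesenchyme, had log2 values of 7.15, 6.82 and 6.62 in ascending aorta and 6.56, 6.40 and 6.50 in descending aorta (replicates 1, 2 and 3 of each). Every ascending array lay above every descending one, although ascending replicate 3 cleared the highest descending array by little. The mean was 6.86 ± 0.27 in ascending and 6.49 ± 0.082 in descending aorta (SD, n = 3 each). The log2 difference of 0.37 ± 0.14 (SE), a 1.30-fold difference, had an adjusted p of 0.53 in limma, which tied with the smallest adjusted p of any gene. The difference was 0.23 when the highest array, ascending replicate 1, was left out. It was 0.49 ± 0.12 without ascending replicate 3 (SE, limma adjusted p = 0.0652).

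Msx1, the close paralog of Msx2 with roles in palate, teeth and cushion mesenchyme, had values of 7.52, 7.60 and 7.30 in ascending aorta and 7.46, 7.38 and 7.35 in descending aorta. Ascending replicates 1 and 2 lay above the descending arrays and ascending replicate 3 below them. The log2 difference was 0.081 ± 0.097 (SE), with a 95% interval from -0.15 to 0.31. It ranged from 0.017 without ascending replicate 2 to 0.17 without ascending replicate 3.

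Dlx2, which with its neighbour Dlx1 patterns the proximal arches, had values of 7.53, 7.09 and 6.75 in ascending aorta and 6.83, 6.87 and 6.82 in descending aorta. The descending arrays lay within a narrow band, ascending replicates 1 and 2 above it and ascending replicate 3 below it, so the SD was 0.39 in ascending and 0.028 in descending aorta (n = 3 each). The log2 difference was 0.28 ± 0.18 (SE, limma adjusted p = 0.621). Leaving out ascending replicate 1 gave 0.081, and leaving out ascending replicate 3 gave 0.47 ± 0.13 (SE, limma adjusted p = 0.104).

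Dlx1 had values of 7.58, 7.23 and 7.20 in ascending aorta and 7.25, 6.99 and 7.01 in descending aorta. Here ascending replicate 1 stood above all other arrays, and descending replicate 1, the next highest, stood just above the other ascending arrays. The log2 difference was 0.25 ± 0.13 (SE, limma adjusted p = 0.562), and 0.13 without ascending replicate 1. Dlx1as, the antisense transcript at that locus, had 6.33, 6.36 and 6.14 in ascending aorta and 6.54, 6.17 and 6.08 in descending aorta, which overlap.

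**Figure D1:**
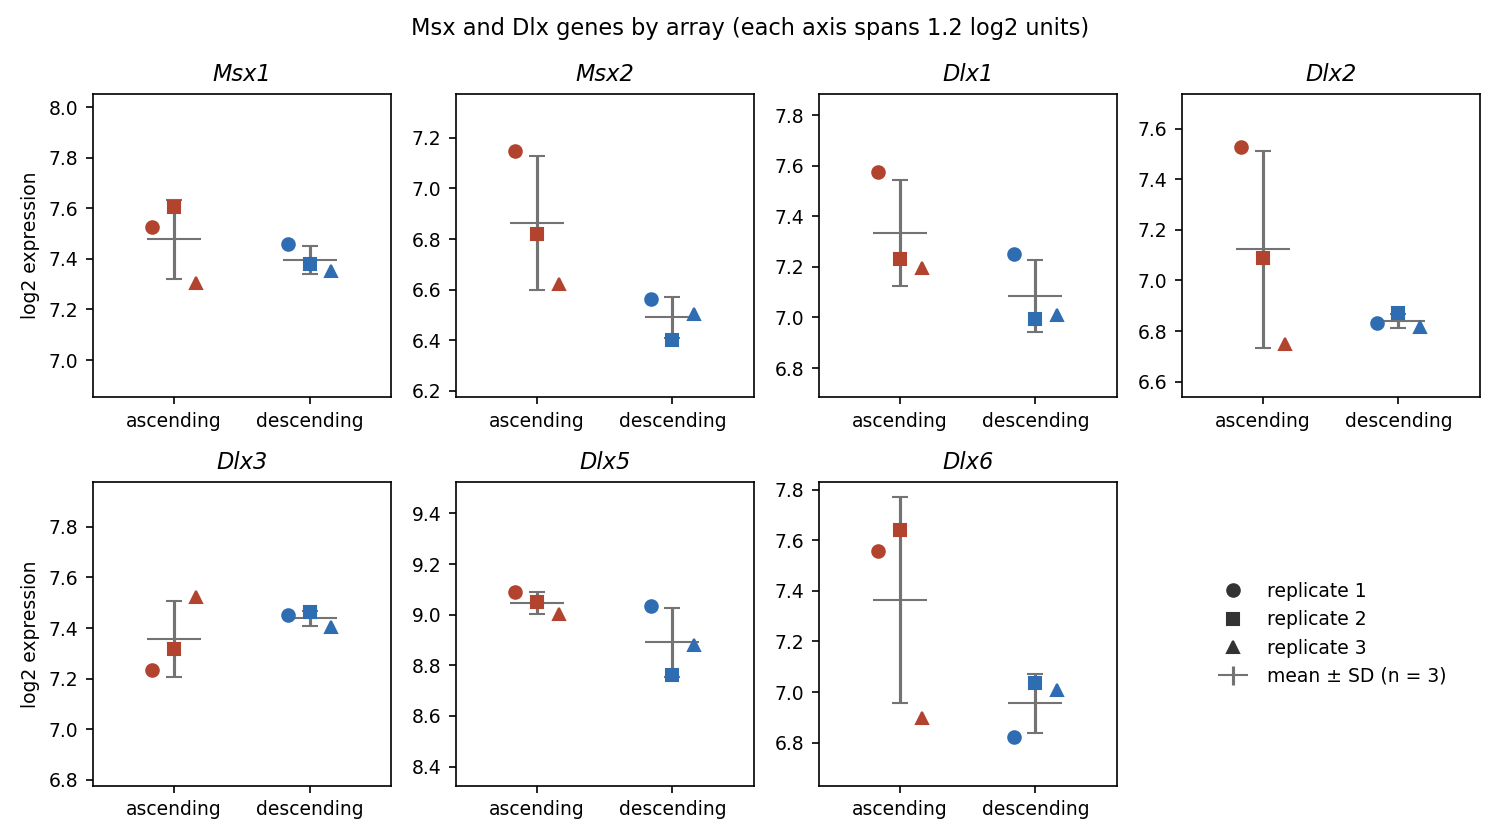
Log2 expression of the 7 members (vertical axes, each spanning the same number of log2 units) in ascending and descending aorta, with 1 symbol per array and bars for the mean ± SD (n = 3). Only Msx2 has every ascending array above every descending array, and for Dlx6 ascending replicates 1 and 2 stand at 7.56 and 7.64 while ascending replicate 3 lies among the descending arrays.

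Dlx6, a distal arch gene under endothelin control, had values of 7.56, 7.64 and 6.90 in ascending aorta and 6.82, 7.04 and 7.01 in descending aorta. Ascending replicates 1 and 2 stood together above all other arrays, and ascending replicate 3 lay within the descending range. The means were 7.37 ± 0.41 and 6.96 ± 0.12 in ascending and descending aorta (SD, n = 3 each). The log2 difference of 0.41 ± 0.19 (SE), or 1.33-fold, did not pass (limma adjusted p = 0.544). Without ascending replicate 3 Dlx6 rose by 0.64 ± 0.10 (SE) on the log2 scale, or 1.56-fold, and was the 1 member of 7 that passed (limma adjusted p = 0.0132), against 4.68% of all genes. At an unadjusted p under 0.05 there were 4 of 7 members in that fit, Msx2, Dlx1, Dlx2 and Dlx6, against 17.2% of all genes, and 6 of 7 had a higher mean in ascending aorta, against 45.4%.

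Dlx5 is transcribed toward Dlx6 from the other end of the same locus and works with it in jaw and bone formation. It had values of 9.09, 9.05 and 9.003 in ascending aorta and 9.03, 8.76 and 8.88 in descending aorta. Descending replicate 1 lay among the ascending arrays, and the whole range was 0.33. The log2 difference was 0.16 ± 0.091 (SE), with a 95% interval from -0.056 to 0.37, and leaving out ascending replicate 3 gave 0.18, leaving out descending replicate 2 0.090. Dlx5 and Dlx6 thus differed in their values over the arrays: ascending replicate 3 lay 0.11 above the descending mean for Dlx5 and 0.057 below it for Dlx6.

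Dlx3, known from distal arch, surface ectoderm and placenta, was the 1 member with a lower mean in ascending aorta. Its values were 7.23, 7.32 and 7.52 in ascending aorta and 7.45, 7.46 and 7.40 in descending aorta. Ascending replicates 1 and 2 lay below the descending arrays and ascending replicate 3 above them. The log2 difference was -0.082 ± 0.093 (SE), with a 95% interval from -0.30 to 0.14. It ranged from -0.16 without ascending replicate 3 to -0.020 without ascending replicate 1. The remaining family genes overlapped between the segments. Dlx4, the partner of Dlx3 in its gene pair, differed by -0.15 ± 0.089 (SE), and Msx3, in the mouse a gene of the dorsal neural tube, by -0.046 ± 0.082.

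**Figure D2:**
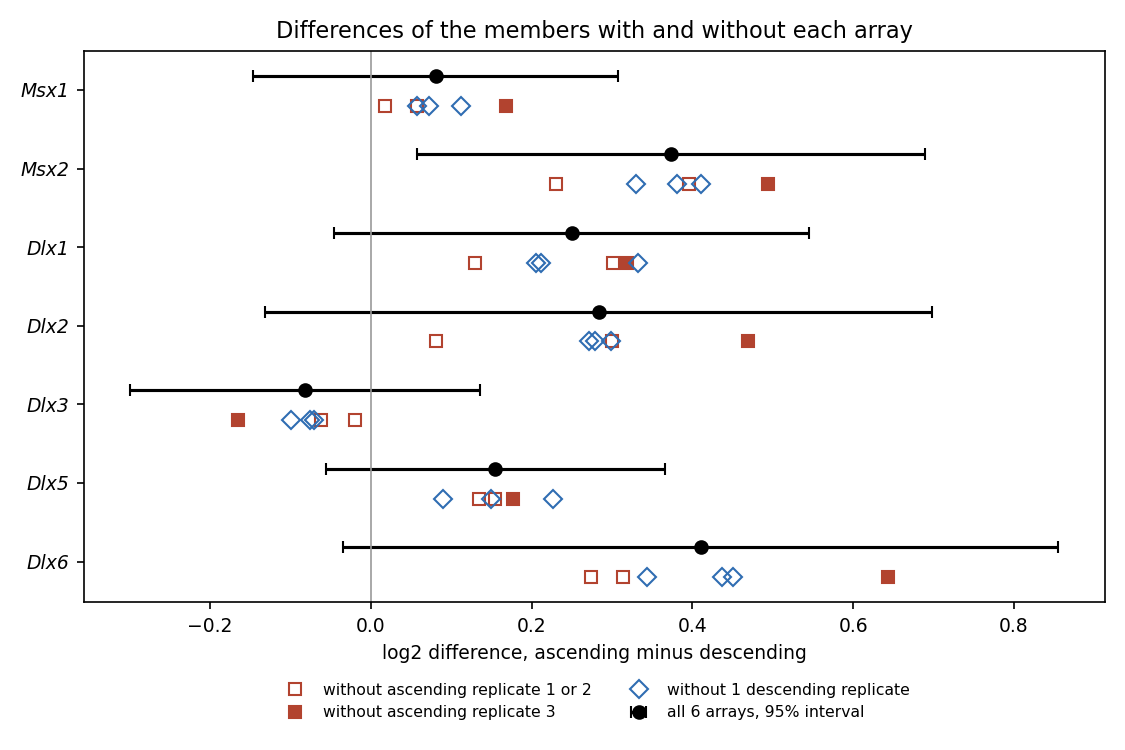
Log2 difference, ascending minus descending (horizontal axis), of each member. Black points with bars give all 6 arrays with the 95% interval from limma, and squares and diamonds the value with 1 ascending or descending array left out. Only the interval of Msx2 excludes 0, and the filled squares, without ascending replicate 3, reach 0.64 for Dlx6.

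The direction of each member stayed the same whichever single array was left out, with Dlx3 below 0 and the others above 0. Ascending replicates 1 and 2 both lay above every descending array for 5 of 7 members, Msx1, Msx2, Dlx2, Dlx5 and Dlx6, against 15.6% of all genes, a rule set after the values were seen. Ascending replicate 3 lay above all descending arrays for 2 members, below them for 2 and within their range for 3. The highest array was ascending replicate 1 for 4 members, Msx2, Dlx1, Dlx2 and Dlx5. Of all genes, 16.8% had their highest value on that array.

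The members with the most similar values were not the genomic pairs. Taken as the root mean square distance between gene-centred log2 values over 6 arrays, Msx2 lay 0.096 from Dlx1 and 0.11 from Dlx2, and Msx1 lay 0.10 from Dlx5. The distance within the Dlx1 and Dlx2 pair was 0.15 and within the Dlx5 and Dlx6 pair 0.29. This distance depends on how much a gene varies as well as on its pattern, so genes that vary little lie close together. Msx1 and Dlx5 had ranges of only 0.30 and 0.33 over the arrays. Dlx3 and Dlx6 were farthest apart at 0.41. Since no member had a range of 1 over the arrays, the genes most like each were taken for the 4 members with a range of at least 0.5, a limit set after the values were seen. For Msx2 they were Cox4i2, Has2, Rnf11, Ilvbl and Ube2l6, at distances of 0.046 to 0.062. Has2, which makes the hyaluronan of cardiac cushions, had 7.58, 7.27 and 7.06 in ascending aorta and 7.05, 6.78 and 6.84 in descending aorta. The list of 8 outflow cushion and valve genes that holds Has2 did not share that direction. In ascending aorta 3 of them had a higher and 5 a lower mean, with a median log2 difference of -0.031. For Dlx1 they were Crygb, Lrrtm3, Mpv17l, Rtl4 and Lmo4, at 0.035 to 0.055. For Dlx2 they were Hacd1, Kcnk1, Tex30, Clvs2 and St3gal6, at 0.047 to 0.069. For Dlx6 they were Slc12a2, Rragb, Trh, Arxes2 and Zdhhc2, at 0.042 to 0.056. Slc12a2, a sodium, potassium and chloride cotransporter, had 10.75, 10.77 and 10.04 in ascending aorta and 10.07, 10.21 and 10.24 in descending aorta.

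The signals that induce these genes were measured on the same arrays. Of 17 BMP ligands, receptors, Smads and antagonists, 0 passed over all 6 arrays, 6 had a higher mean in ascending aorta, and the median log2 difference was -0.052, against -0.021 for all genes. Bmp4, a ligand that induces Msx genes, had 10.89, 11.12 and 10.82 in ascending aorta and 10.48, 10.24 and 10.77 in descending aorta. The segments did not overlap for Bmp4, and it differed by 0.45 ± 0.15 (SE, limma adjusted p = 0.53). The ligand gene Bmp5 differed by -0.54 ± 0.34 and Bmper, a secreted BMP-binding protein, by -0.56 ± 0.17 (SE). Without ascending replicate 3, 3 of the 17 passed and all were lower: Bmp5 at -0.99, Bmper at -0.75 and the antagonist Chrd at -0.50 (limma adjusted p = 0.00195 for Bmp5).

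Of 7 genes that BMP induces directly, 0 passed over all 6 arrays, and 6 had a higher mean in ascending aorta, against 43.8% of all genes. Their median log2 difference was 0.11, against -0.021 for all genes. Bambi, a decoy receptor that limits BMP signalling, had 11.11, 11.22 and 10.48 in ascending aorta and 10.18, 10.11 and 10.36 in descending aorta, with no overlap. Its log2 difference was 0.72 ± 0.19 (SE, limma adjusted p = 0.53), and without ascending replicate 3 it was the 1 gene of the 7 that passed (0.95 ± 0.11, SE, limma adjusted p = 0.00299). Id1 and Id2, helix-loop-helix inhibitors, differed by 0.20 ± 0.095 and -0.21 ± 0.12 (SE).

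Of 6 measured genes of the endothelin signal that turns on Dlx5 and Dlx6, 0 passed with all arrays and 0 without ascending replicate 3. Ednra, the endothelin receptor gene of that list, was not among the 6. The transcription factor gene Mef2c differed by -0.40 ± 0.12, the endothelin-converting enzyme Ece1 by 0.19 ± 0.13 and the ligand gene Edn1 by -0.13 ± 0.16 (SE). Of 9 measured arch genes that act downstream of or beside Dlx and Msx, 0 passed over all arrays, with a median log2 difference of 0.15. Without ascending replicate 3, 3 of them passed, all higher, against 4.68% of all genes. Hand2, a helix-loop-helix factor that Dlx5 and Dlx6 activate in the mouse lower jaw and that also acts in the heart, had 10.01, 10.71 and 8.58 in ascending aorta and 8.66, 8.44 and 8.49 in descending aorta. As for Dlx6, ascending replicate 3 lay among the descending arrays. Without it Hand2 rose by 1.83 ± 0.19, Alx1, a homeobox gene of facial mesenchyme, by 1.16 ± 0.11 and Hand1 by 1.04 ± 0.19 (SE, limma adjusted p = 0.00205 for Hand2, 0.00144 for Alx1 and 0.0235 for Hand1). Of 9 measured genes whose proteins bind or act with Msx and Dlx proteins, 0 passed in either fit. Meis2, a homeodomain cofactor, differed by 0.27 ± 0.13, the corepressor Tle1 by 0.22 ± 0.11 and the cofactor Meis1 by 0.090 ± 0.075 (SE).

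Among markers of other cells, those of surface and pharyngeal epithelium were high on ascending replicate 1, where Msx2, Dlx1, Dlx2 and Dlx5 were highest. Dlx3, Msx1 and Msx2 are also expressed in such epithelium. Of these, Msx2 had its highest value, 7.15, and Dlx3 its lowest, 7.23, on ascending replicate 1. Msx1 was highest on ascending replicate 2, at 7.60, and had 7.52 on ascending replicate 1, above every descending array. The 8 epithelial genes had a median of 0.74 above the descending mean on ascending replicate 1, 0.058 on replicate 2 and 0.045 on replicate 3, and 6 of the 8 had their highest value on ascending replicate 1. Their summed level on the linear scale ran from 1393 to 2467 over the ascending and from 1285 to 1410 over the descending arrays, and no marker was listed at 0. Krt8 and Krt18, keratins that mesothelium shares, carried most of that sum. The adhesion gene Cdh1, picked after its values were seen, had 7.90, 6.92 and 6.84 in ascending aorta and 6.89, 6.9996 and 6.84 in descending aorta. Tfap2b, a neural crest and ectoderm factor picked in the same way, had 8.73, 7.08 and 6.50 in ascending aorta and 6.62, 6.48 and 6.66 in descending aorta. It belongs to the neural crest list, whose 11 genes had a median of -0.22 from the descending mean on ascending replicate 1. The related gene Tfap2a lay 0.078 above its descending mean there. The part of epithelial cells in the Msx2, Dlx1, Dlx2 and Dlx5 values was not tested.

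Of the markers of other cells, those of mesothelium and epicardium were high and those of endothelium low on the arrays on which Dlx6 was high. The median of 8 mesothelial and epicardial markers was 1.70, 1.59 and 0.24 above the descending mean on ascending replicates 1, 2 and 3, and their summed level ran from 5834 to 12732 over the ascending and from 4930 to 5650 over the descending arrays. Upk3b, a uroplakin of mesothelium, had 12.26, 12.42 and 10.51 in ascending aorta and 9.82, 10.06 and 10.37 in descending aorta. The epicardial factor gene Tbx18 did not share that pattern, with 10.58, 10.94 and 10.62 in ascending aorta and 10.93, 10.78 and 10.73 in descending aorta. The 8 endothelial markers had medians of -0.57, -0.51 and -0.16 from the descending mean on ascending replicates 1, 2 and 3, and summed levels of 11630 to 17862 in ascending and 18577 to 21105 in descending aorta. All 8 had a lower mean in ascending aorta, 0 passed over all arrays, and 4 passed without ascending replicate 3, all lower, against 4.68% of all genes. Emcn, an endothelial sialomucin picked after its values were seen, was one of them at -2.48 (limma adjusted p = 0.000245). Cdh5, the cadherin of endothelial junctions, had 11.80, 12.0006 and 12.39 in ascending aorta and 12.61, 12.37 and 12.50 in descending aorta. The endothelial marker Tek differed by only -0.076 ± 0.082 (SE). It had 10.97, 11.11 and 10.91 in ascending aorta and 11.04, 11.05 and 11.13 in descending aorta, which overlap.

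Cardiac and macrophage markers followed the Dlx6 arrays only in part. The 11 cardiac muscle markers had medians of 0.22, 0.47 and 0.13 from the descending mean on ascending replicates 1, 2 and 3. On descending replicates 1, 2 and 3 the medians were 0.0036, -0.17 and 0.16. By the median, ascending replicate 1 lay near ascending replicate 3 and descending replicate 3, but by the summed level it stood above both. Summed levels were 8427, 10999 and 6561 on ascending replicates 1, 2 and 3, and 4717 to 6214 in descending aorta. All 11 had a higher mean in ascending aorta, 0 passed over all arrays, and 2 passed without ascending replicate 3, both higher. Cardiac actin, Actc1, had 11.23, 11.40 and 11.31 in ascending aorta and 10.74, 10.75 and 11.01 in descending aorta, with ascending replicate 3 as high as the others. The troponin gene Tnnt2 had 10.78, 11.49 and 8.86 in ascending aorta and 8.90, 8.74 and 9.06 in descending aorta, with ascending replicate 3 among the descending arrays. The 8 macrophage markers had medians of -0.12, -0.96 and 0.12 on ascending replicates 1, 2 and 3, all 8 had a lower mean in ascending aorta, and their summed levels were 2277 to 5179 in ascending and 4517 to 4950 in descending aorta. Csf1r, the macrophage growth factor receptor, had 10.19, 9.41 and 10.57 in ascending aorta and 10.24, 10.37 and 10.36 in descending aorta. Of 11 neural crest and arch mesenchyme genes 0 passed over all arrays, with a median difference of -0.087. Without ascending replicate 3, 2 of the 11 passed and both were lower, the mesenchymal homeobox gene Prrx1 at -1.71 ± 0.26 and Crabp1, a retinoic acid binding protein, at -1.82 ± 0.32 (SE, limma adjusted p = 0.011 and 0.0201). The part of these cells in the Dlx6 values was not tested.

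**Figure D3:**
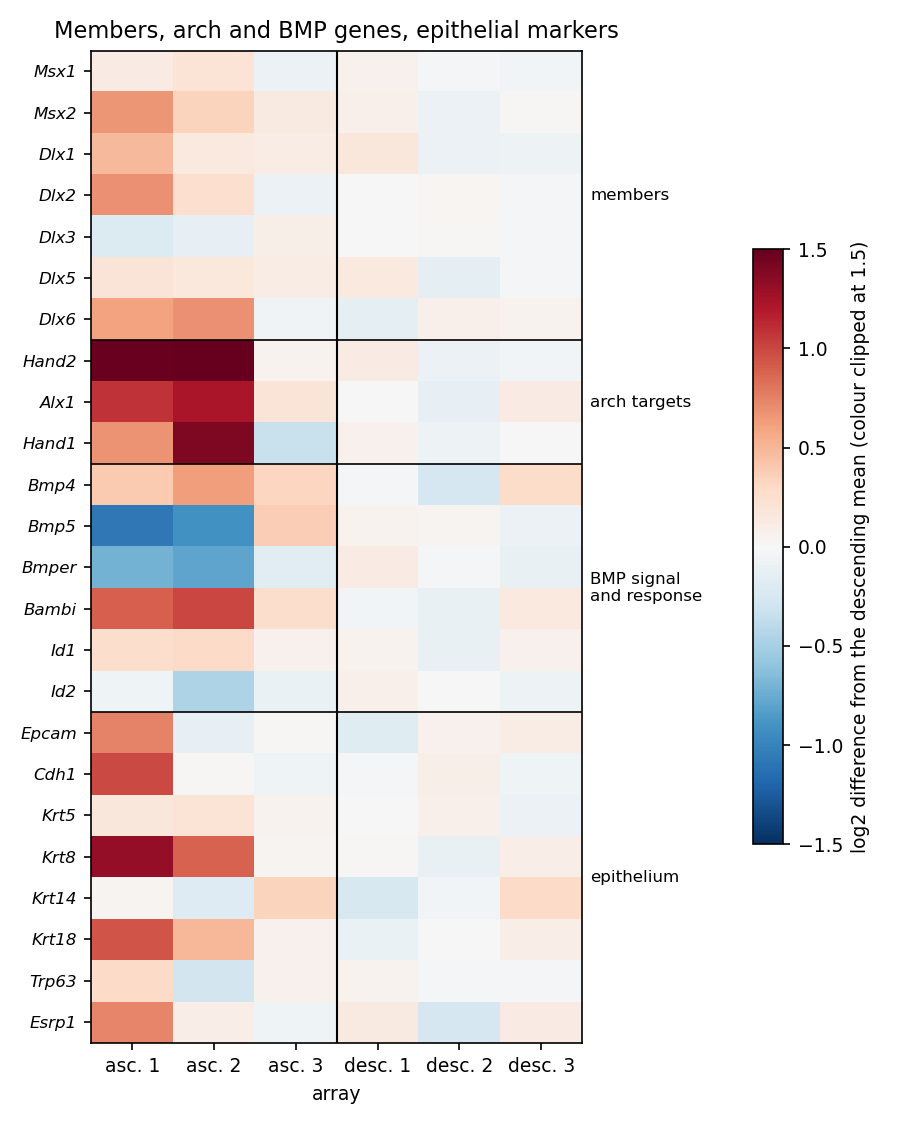
Log2 difference of each array from the descending mean (colour), with the 3 ascending arrays left of the 3 descending arrays. Shown are the members, the arch and BMP genes named in the text except Chrd, and all 8 epithelial markers. Msx2, Dlx1 and Dlx2 are darkest on ascending replicate 1, where Cdh1 is also high, and Dlx6 is high on ascending replicates 1 and 2, where Hand2 and Alx1 are high.

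No call of detection came with the values. As a rough guide to the range of dim probe sets, which differ in brightness for the same amount of RNA, the 1027 odorant receptor genes, which are made by nasal sensory neurons, had a median of 4.64 and a 95th percentile of 6.29 over all arrays. All 7 members lay above that percentile on every array, from 6.40 for Msx2 on descending replicate 2 upward. So did the neural tube gene Msx3, from 6.55 to 6.77, and Gad1, a gene of GABA neurons, from 6.80 to 6.96. Gad2 and Sp8, listed with Gad1, lay below it on every array. The members other than Dlx5 reached at most 7.64, and clearing this mark does not show that they were expressed. Whether a single member was expressed above its own background was not tested.

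The genes that flank the members were compared with them as neighbours only. The 2 nearest measured genes on each side of each member were taken from RefSeq's GRCm38.p6 gene table, which holds all 7 members. This gave 21 genes outside the 7, with log2 differences from -0.43 to 0.61, and 0 passed over all arrays. Without ascending replicate 3, 2 of the 21 passed: Stk32b, a kinase gene beside Msx1, at 0.67 ± 0.13, and Itga6, the laminin-binding integrin alpha subunit gene beside Dlx2, at -0.45 ± 0.094 (SE, limma adjusted p = 0.0283 and 0.0355). Itga6 lay on the other side of 0 from Dlx2. Beside Dlx6, Sem1 had 10.47, 10.38 and 10.40 in ascending aorta and 9.19, 9.93 and 10.32 in descending aorta, a spread over the descending arrays that Dlx6 did not show. For Sem1 and the next gene, Slc25a13, every ascending array lay above every descending one, with differences of 0.61 ± 0.25 and 0.26 ± 0.075 (SE). The reverse held for Drd1 beside Msx2 and Tac4 near Dlx3. Of all genes, 14.8% had segments without overlap.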

How the data were processed

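RNA extracted with Trizol was hybridised as biotinylated cRNA to Affymetrix arrays, per the labels' protocols. The deposited values are on a log2 scale, as their range of 2.53 to 14.6 and array medians of 7.14 to 7.22 show, and were made by the authors with RMA (background correction, quantile normalization, probe summary) and Partek 6.6, per the submitters' processing notes. The genome build is not given in the sources used here. RMA shrinks differences of dim genes and hides any shift common to most genes.

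Of 35556 probe sets, the 21789 with 1 symbol were used, and the one with the highest mean was kept for each of 19938 genes. Segments were compared as ascending minus descending in limma 3.58.1 (R 4.3.3, lmFit and eBayes, two-sided, no covariates, no filter), Benjamini-Hochberg adjusted over all genes, threshold 0.05. The number of arrays, 3 per segment, limits the precision. The fit was tested on simulated data. Other steps used Python 3.11.15, pandas 2.3.3 and, for plots, matplotlib 3.10.9.

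The members, lists, naming rule and alternatives were chosen with earlier results of these data known. Named are all members, the 3 genes of each signalling list with the largest difference, up to 2 of the brightest markers of a described list, neighbours, and the 5 genes most like a member. Some list members were not analysed here. Each result had 16 alternatives, among them leaving out each array.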

Additional observations from a re-analysis of the deposited data

How the results depend on the processing

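Over all 6 arrays, 0 genes and 0 members passed in limma, and the counts were also 0 after repeated quantile normalization, median-centring, both filters on dim genes, the mean of all probe sets, all 35556 probe sets, a robust fit with a variance trend, array weights and a per-gene test without moderated variance. Leaving out each array in turn gave 0 to 933 genes and 0 to 1 members, and the 933 genes and the 1 member, Dlx6, came without ascending replicate 3. The difference of Dlx6 ran from 0.27 to 0.64 over these fits, and it passed at 0.64 (limma adjusted p = 0.0132, against up to 0.841 under its other alternatives). The cause was not tested. Of 106 differences of single members under an alternative, 105 kept their direction and their side of the threshold, and 0 reversed. The members' differences ranged most for Dlx2, from 0.081 to 0.47, over the fits that left out an array. The filter at the 50th percentile of mean expression removed every member but Dlx5. The median difference of all genes was -0.021, against -0.00022 once quantile normalization was repeated and -0.014 once each array was centred on its median.

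With the replicate number as a block, 0 genes and 0 members passed (lowest adjusted p = 0.602), and 1623 genes had an unadjusted p under 0.05, against 1852 without it. Same-numbered arrays did not deviate together (correlations of -0.08, -0.055 and 0.024 for replicates 1, 2 and 3), and ascending replicate 1 correlated best with descending replicate 2. With 3 arrays per segment these correlations cannot settle whether same-numbered arrays were paired, and the labels do not say. The few arrays limit which differences these data show.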
